A study of Homo sapiens with 2 samples.

Results

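The CEP genes encode proteins of the centrosome, and their promoters were examined for binding of the transcription factor MYBL2 in Ewing sarcoma cells. The genes were chosen by name, as the protein-coding genes of the GENCODE annotation whose symbol is CEP followed only by digits. This gave 34 of 20098 protein-coding genes. The measurement was chromatin immunoprecipitation followed by sequencing (ChIP-seq) in A673, an established Ewing sarcoma cell line labelled as wild type, with no treatment named in the labels. There was 1 MYBL2 ChIP library and 1 input library of the same line, which is sheared chromatin without immunoprecipitation. By its label the antibody recognised MYBL2, while the methods of the study describe an antibody to phosphorylated MYBL2, the activated form. With no replicate, no value has a replicate error and no test between groups was possible.

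The centrosome is the main microtubule-organising centre of animal cells. It is built around a pair of centrioles, which are copied once per cell cycle, surround themselves with pericentriolar material, and can dock at the cell surface to template a primary cilium. Proteins with a CEP name share this location and not a common ancestor. Some build or lengthen centrioles, some form their appendages or the linker between them, many serve cilia, and a few act in mitosis. CEP55 stands apart from the structural proteins because it works at the midbody, where it recruits the abscission machinery that separates daughter cells. MYBL2 (B-Myb) joins the MuvB complex on promoters of genes that peak late in the cell cycle. MuvB reads the cell cycle genes homology region (CHR) element, and MYB proteins read a short MYB site.

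Promoter sequences at or near the summits of the MYBL2 peaks are shown first, for genes that differ in what lay there. The printed stretches of CEP55, CEP72 and CEP85 end before the summit. All were read from GRCh37 (hg19) 5′ to 3′ on the strand of the gene, and positions are counted from the canonical transcription start site (TSS). CEP55, CEP72 and CEP290 are 3 of the 4 CEP genes with a CHR element within 50 bp of the summit. Capitals mark that element (TTTGAA, or TTCAAA when read on the other strand) and, in CEP55, also an ETS core (CCGGAAG).
CEP55, chr10:95256299-95256394, plus strand: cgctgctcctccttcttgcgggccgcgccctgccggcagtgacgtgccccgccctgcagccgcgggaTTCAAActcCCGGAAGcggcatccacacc
CEP72, chr5:612395-612480, plus strand: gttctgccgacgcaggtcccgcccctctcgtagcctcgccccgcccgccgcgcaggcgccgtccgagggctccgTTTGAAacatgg
CEP290, chr12:88535905-88536005, minus strand: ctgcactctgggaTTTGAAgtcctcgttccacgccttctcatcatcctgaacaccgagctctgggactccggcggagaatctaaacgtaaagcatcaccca
The element began at −3 in CEP55, shortly before its ETS core, at +14 in CEP72 and at −127 in CEP290. CEP43, CEP83 and CEP85 are shown because each held more than 1 MYB site (CAACNG or TAACNG on either strand, in capitals) near the summit.
CEP43, chr6:167412849-167412878, plus strand: ctgcggCCGTTGgCCGTTAgcgcggcttcg
CEP83, chr12:94853773-94853833, minus strand: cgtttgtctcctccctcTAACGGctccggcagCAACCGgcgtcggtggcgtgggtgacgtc
CEP85, chr1:26560631-26560711, plus strand: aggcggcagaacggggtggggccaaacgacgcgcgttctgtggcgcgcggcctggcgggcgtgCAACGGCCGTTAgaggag
A further CEP43 site lies beyond the end of the printed stretch. In CEP85 the sites stood back to back, beginning at +3 and +9. CEP192 is shown for contrast, as a strongly enriched promoter with none of the motifs searched.
CEP192, chr18:12991276-12991376, plus strand: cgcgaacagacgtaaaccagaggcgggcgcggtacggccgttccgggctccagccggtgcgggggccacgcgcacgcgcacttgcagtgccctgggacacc

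To learn how many CEP promoters carried MYBL2, peaks overlapping 1000 bp either side of any TSS of each gene were counted. All 34 CEP genes had at least 1 such promoter peak (100%, exact binomial 95% interval 89.7 to 100%). Among all protein-coding genes the share was 59.4% (11941 genes). Most CEP promoters are rich in CpG, a property that goes with the presence of a peak in this list. In 32 of the 34 genes the CpG observed/expected ratio around the canonical TSS was at least 0.6, and among all protein-coding genes of that kind 78.9% had a promoter peak. Among protein-coding genes below that ratio the share was 21.6%. The CEP genes below it were CEP128, with a ratio of 0.557, and CEP20, with a ratio of 0.536, and both had a peak. The part of promoter CpG in the count was not tested.

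How strong a peak was is given by its fold enrichment, the ChIP fragments piled up at the summit divided by a local background taken by the peak caller from the input, after the caller adds 1 to both numbers. The depth behind a value is that pileup, which was recovered from the deposited values as a whole number of fragments. For the 34 genes the best promoter peak, the one of largest fold enrichment, had a median fold enrichment of 9.08 (quartiles 6.96 to 12.3, range 4.65 to 37.3). The median over all protein-coding genes with a promoter peak was 8.67 (quartiles 5.94 to 12.1), and 8.99 over those with a CpG-rich promoter. The CEP genes were thus spread through the distribution, with 18 above its median by fold enrichment, 10 above its upper quartile and 3 below its lower quartile. A fold enrichment of at least 5 was reached by 32 of the 34 genes. It was reached by 49.6% of all protein-coding genes and 67.8% of those with a CpG-rich promoter, genes without a peak included. Of the 11941 protein-coding genes with a promoter peak, 9970 reached it. Pileups at the best peaks ran from 20 to 183 fragments, with a median of 52 against 43 over all bound protein-coding genes. Poisson intervals on these pileups, carried over to the fold enrichment, give the counting error of the pileup alone. The local background was held fixed in them, and duplicates among the fragments are not separate molecules.

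**Figure D1:**
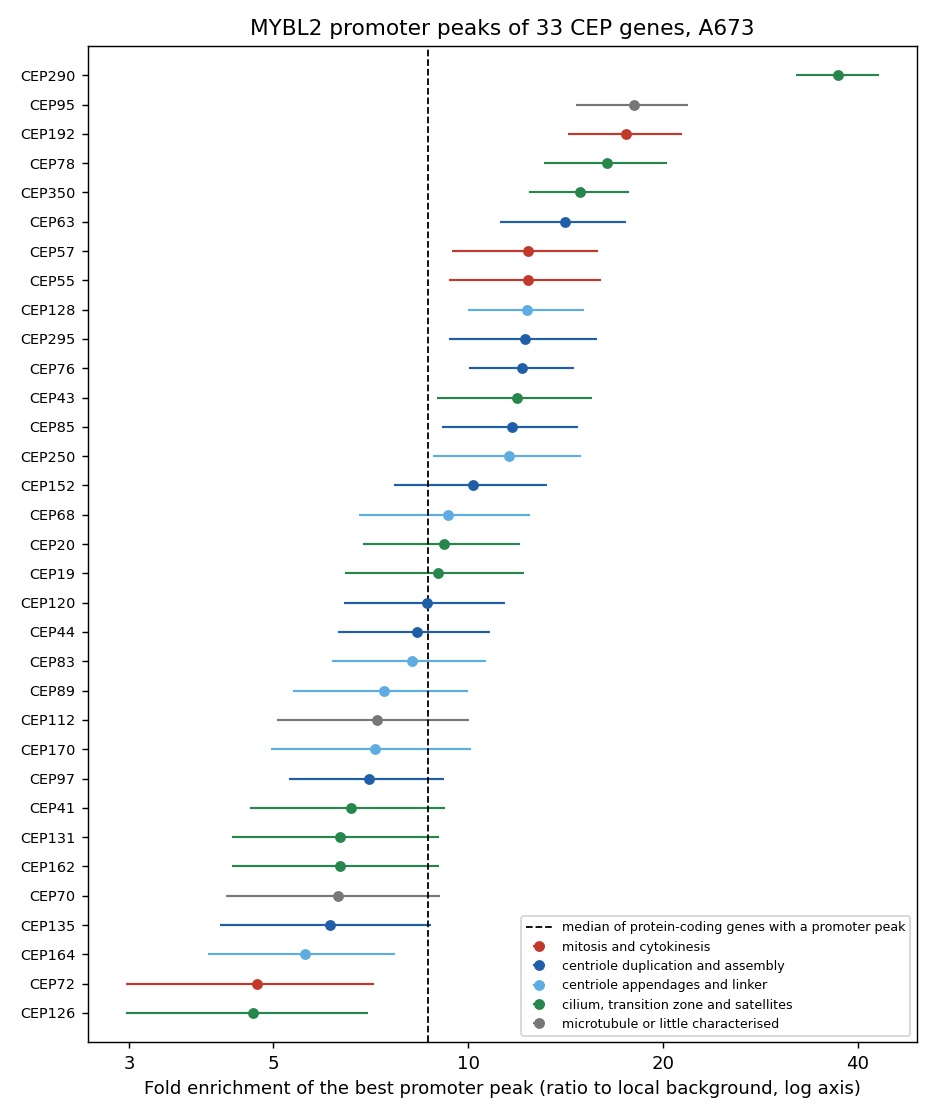
Fold enrichment of the best promoter peak of 33 of the 34 CEP genes (log axis) in the 1 MYBL2 ChIP library, with bars for the exact Poisson 95% interval of the pileup and colours for the role of the gene. CEP290 stood at 37.3 above all others, CEP126 and CEP72 lay lowest at 4.65 and 4.72, and most neighbouring intervals overlap.

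CEP55, the abscission factor, lay in the upper part of this range. Its best peak (ENSG00000138180, gene on chromosome 10 from 95256369 to 95288849, plus strand) spanned chr10:95255632-95256964. The summit lay in the 5′ UTR, 27 bp downstream of the TSS, and the window held no TSS of any other protein-coding or lncRNA gene. The pileup was 54 fragments (interval 40.6 to 70.5) over a local background of 3.45. This is the lowest background in the list, a floor value at which 6 of the 34 CEP genes stood. With 1 added to pileup and background, the fold enrichment was 12.4 (interval 9.34 to 16.1), above that of 75.6% of bound protein-coding genes. CEP55 ranked 8 among the 34 genes by fold enrichment and 13 by −log10 q. Its interval overlapped those of 23 other CEP genes, so its place among them was not resolved at this depth. Only CEP290 lay wholly above that interval, and 9 genes lay wholly below it.

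The other genes assigned to mitosis and cytokinesis were CEP192, CEP57 and CEP72. CEP192, a scaffold that recruits Aurora A and PLK4 and is needed for spindle assembly, had a fold enrichment of 17.6 (interval 14.3 to 21.4) from 96 fragments (interval 77.8 to 117.2) at chr18:12990513-12992084. Its summit lay 37 bp upstream of the TSS and its sequence is printed above. A TSS of CEP192-DT, an opposite-strand lncRNA gene, was 152 bp from that summit. CEP57, a pericentriolar protein involved in spindle microtubule attachment and centriole engagement, had a fold enrichment of 12.4 (interval 9.46 to 15.9) from 59 fragments at chr11:95522435-95524058. That summit lay 275 bp upstream of the nearest CEP57 TSS and 75 bp from a TSS of FAM76B, a gene on the opposite strand. CEP72, which helps to recruit pericentriolar proteins for spindle formation, was near the bottom of the list. It had 3 narrow promoter peaks, 164, 178 and 339 bp wide, with fold enrichments of 4.72, 4.27 and 3.59 and summits at +28, +387 and +714. The first, at chr5:612407-612570, rested on 20 fragments (interval 12.2 to 30.9). By rank among the 34 genes the mitotic genes thus ran from 3 (CEP192) to 33 (CEP72), with intervals of CEP72 (2.97 to 7.16) and CEP192 that did not overlap.

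By role, fold enrichments overlapped throughout. The 4 mitotic genes had a median of 12.4 (range 4.72 to 17.6). The 16 structural centriole genes had a median of 8.98 (range 5.61 to 14.1). Within these, the 9 genes of centriole duplication and assembly had a median of 10.2 (range 6.13 to 14.1), and the 7 genes of appendages and linker 8.19 (range 5.61 to 12.3). The 11 genes of the cilium, its transition zone and the centriolar satellites had a median of 8.99 with the widest range, 4.65 to 37.3. The remaining 3 genes, which bind microtubules or are little characterised, had a median of 7.23 (range 6.29 to 18.02). The mitotic median rested on 4 genes of which 1 was at the bottom of the list, and no difference between roles was tested.

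**Figure D2:**
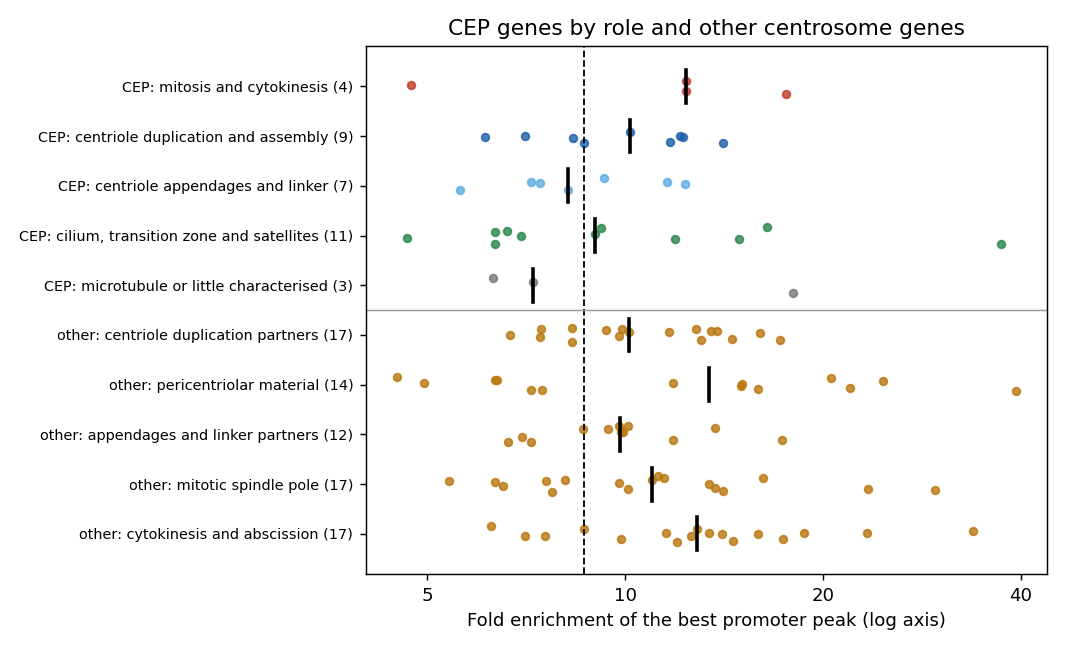
Fold enrichment (log axis) of the best promoter peak by role of the gene, 1 point per gene, for the 5 roles of CEP genes and the 5 lists of other centrosome and abscission genes, with a solid line at each median and a dashed line at the median of all bound protein-coding genes. The CEP medians run from 7.23 to 12.4 while the points of the roles overlap, and CEP55 lies at the median of the mitotic genes.

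The strongest CEP peak was at CEP290, a protein of the ciliary transition zone that acts as a gate between cytoplasm and cilium. Its peak at chr12:88535350-88536461 held 183 fragments (interval 157.4 to 211.5) and had a fold enrichment of 37.3 (interval 32.1 to 43.1). It ranked 74 among all 66954 peaks and above 99.3% of bound protein-coding genes. The summit lay 66 bp upstream of the nearest CEP290 TSS and 131 bp from a TSS of TMTC3, which is transcribed the other way. CEP95, a little characterised centrosomal protein, followed with a fold enrichment of 18.02 (interval 14.7 to 21.9) from 100 fragments. Its peak was 5445 bp wide (chr17:62498266-62503710), with the summit 612 bp from the CEP95 TSS and 36 bp from a TSS of DDX5, an RNA helicase gene. CEP78, a protein of mature centrioles and of photoreceptor cilia, reached 16.4 from 83 fragments at chr9:80850628-80851538, and had no opposite-strand protein-coding gene in its window. Its summit lay 20 bp from the nearest CEP78 TSS and 22 bp from a TSS of an opposite-strand lncRNA gene. CEP350, a large centriolar protein that anchors microtubules, reached 14.9 from 125 fragments at chr1:179923405-179924474, with a local background of 7.46. That summit stood 31 bp from the nearest CEP350 TSS and 2 bp from a TSS of an opposite-strand lncRNA gene. Only CEP290 and CEP350, together with CEP76, exceeded 100 fragments, and of these CEP290 alone stood clear of every other CEP gene in fold enrichment.

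Among the genes of centriole duplication, the largest value was at CEP63, which with CEP152 forms the ring that recruits PLK4 to the mother centriole. CEP63 had a fold enrichment of 14.1 and CEP152 of 10.2. CEP295, needed to convert a new centriole into a centrosome, stood at 12.3. CEP76, which limits repeated duplication, stood at 12.1 from 113 fragments over the highest local background of the set, 8.40. CEP85 reached 11.7, CEP120, which elongates centrioles, 8.65, CEP44 8.34 and CEP97, a partner of CP110 in capping centrioles, 7.04. CEP135, part of the cartwheel that templates the new centriole, was lowest at 6.13. Values in this role thus ran from below the median of all bound protein-coding genes to above their upper quartile.

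Among appendage and linker genes, CEP128, a subdistal appendage protein, stood highest at 12.3 from 92 fragments. CEP250 (C-Nap1), the anchor of the linker that holds centrioles together, stood at 11.6, and CEP68, another linker protein, at 9.30. The distal appendage genes CEP83, CEP89 and CEP164 had 8.19, 7.42 and 5.61, and the subdistal appendage gene CEP170 had 7.19. CEP164, which docks the mother centriole to membrane, was the third lowest of the 34, with 36 fragments and an interval of 3.97 to 7.71. All 3 of these distal appendage CEP genes lay below the median of bound protein-coding genes. The intervals of CEP83 (6.17 to 10.7) and CEP89 (5.37 to 9.996) reached above that median.

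The cilium and satellite genes other than CEP290, CEP78 and CEP350 had lower values. CEP43, a partner in ciliogenesis also known as FGFR1OP, stood at 11.9, CEP20 at 9.18 and CEP19 at 8.99. CEP41, a ciliary protein, had 6.61. The satellite protein gene CEP131 and the axoneme-binding CEP162 both had 6.34. CEP126 was lowest of all CEP genes at 4.65 (interval 2.96 to 6.996), from 21 fragments at chr11:101785635-101785981. Of the little characterised genes, CEP112 stood at 7.23 and CEP70 at 6.29. CEP126 and CEP72 were the 2 genes that did not reach a fold enrichment of 5, and both intervals reached above it.

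Summits lay close to start sites. In 26 of the 34 genes the summit of the best peak was within 100 bp of a TSS of that gene, against 58.6% of bound protein-coding genes, and in 20 it was within 50 bp, against 40.7%. Distances were to the nearest annotated TSS of any transcript, and the number of start sites per gene was not matched. By the canonical transcript, 19 summits lay outside it, 10 in the 5′ UTR, 2 in a coding exon (CEP20 and CEP72) and 3 in an intron (CEP70, CEP97 and CEP112). The best peaks were 1012 bp wide at the median, against 865 bp over bound protein-coding genes. A single promoter peak was found at 22 genes, while 7 genes had 2 and 5 had 3, making 51 promoter peaks in all. The median number was 1 in CEP genes and 1 in all bound protein-coding genes. For the full split, and for the places of summits by transcript, shares over all bound genes are not given. CEP192 owed its extra peaks to other annotated start sites, with fold enrichments of 3.14 and 3.05 at 17113 bp and 76410 bp into the gene. The farthest upstream summits belonged mostly to genes with a neighbour on the other strand.

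**Figure D3:**
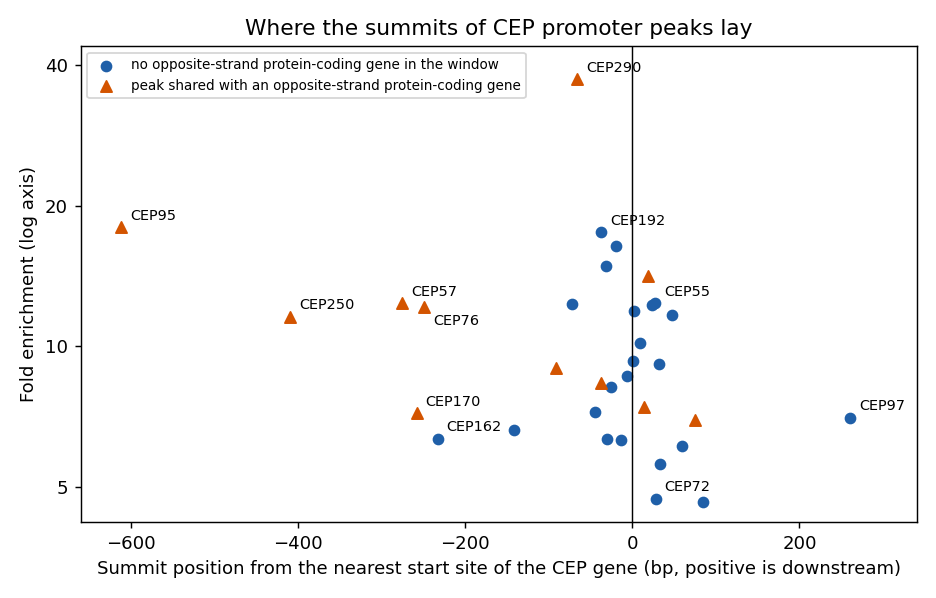
Position of the summit of each best promoter peak relative to the nearest TSS of the CEP gene (bp, positive is downstream) against its fold enrichment (log axis). Triangles are peaks shared with an opposite-strand protein-coding gene, and circles are the others. Most summits sit within 100 bp of the start site, and CEP95, at −612 bp, lies farthest away.

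Since a peak between divergent genes cannot be given to either, shared promoters were counted. The best peak of 11 CEP genes (32.4%) also lay in the promoter window of a protein-coding gene on the opposite strand, against 24.7% of bound protein-coding genes. The partner's TSS was nearer to the summit in 6 of them. Among these were CEP19 (partner PIGX), CEP57 (FAM76B), CEP76 (PSMG2), CEP95 (DDX5) and CEP250 (GDF5). At CEP76 the summit stood 249 bp from the CEP76 TSS and on the TSS of PSMG2, a proteasome assembly factor gene. The CEP gene's own TSS was nearer in 5, namely CEP44 (FBXO8), CEP63 (ANAPC13), CEP89 (FAAP24), CEP170 (SDCCAG8) and CEP290 (TMTC3). CEP170 and SDCCAG8, which encodes another centrosomal protein, shared 1 peak, with the summit 258 bp and 428 bp from their start sites. The median fold enrichment was 11.6 in the 11 shared peaks and 8.65 in the 23 others (range 4.65 to 17.6). In the 13 genes whose peak lay in the window of no other protein-coding or lncRNA gene, CEP55 among them, the median was 7.23. The part of partner genes in these values was not tested, and the divergent genes cannot be told apart.

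To see which sequences lay at the summits, 5 motifs were searched as exact letters on both strands within 50 bp of each best summit. The comparison was the same search at the 10178 distinct best promoter peaks of all protein-coding genes. A MYB site (CAACNG or TAACNG) was found in 14 of the 34 genes (41.2%, exact interval 24.6 to 59.3%), against 17.3% of all those peaks. The genes with a site were CEP20, CEP41, CEP43, CEP63, CEP68, CEP83, CEP85, CEP135, CEP152, CEP162, CEP170, CEP250, CEP295 and CEP350. CEP43 held 3 sites, and CEP68, CEP83 and CEP85 held 2 each. By role the sites were in 9 of the 16 structural genes, 5 of the 11 cilium and satellite genes, 0 of the 4 mitotic genes and 0 of the remaining 3. The CEP genes with a site had a median fold enrichment of 9.74, and those without had 8.49. In windows of the same size centred 500 bp to either side of the summit, the site was found in 8 (23.5%) and 10 (29.4%) of the CEP genes, against 17.4% and 17.7% of all peaks.

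The CHR element (TTTGAA or TTCGAA) lay at the summits of CEP55, CEP72, CEP120 and CEP290, which is 11.8% of the CEP genes (exact interval 3.30 to 27.4%), against 3.88% of all peaks. These 4 included both the strongest peak, at CEP290, and one of the weakest, at CEP72. None of them held a MYB site in the same window. In the flanking windows the CHR letters were found in 1 and 3 CEP genes, against 5.90% and 6.35% of all peaks. An E2F site (TTCCCGC or TTCGCGC or TTGCCGC or TTGGCGC) was found at CEP19, CEP78, CEP97 and CEP162, also 11.8%, against 8.54%. The ETS core (CCGGAAG) was found at CEP55 and CEP164 (5.88% against 7.98%), and the CCAAT box (CCAAT) at CEP131 alone (2.94% against 9.72%). Read on the other strand, the CCAAT box can share 4 letters with the E2F word TTGGCGC, but no CEP summit held both motifs. In CEP55 the CHR element and the ETS core were 3 bases apart. No motif of the 5 was found at 11 of the 34 genes. The matching share over all peaks is not given, so this count cannot be called high or low. Each count rests on few genes, and a match of letters is not evidence of a bound site.

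**Figure D4:**
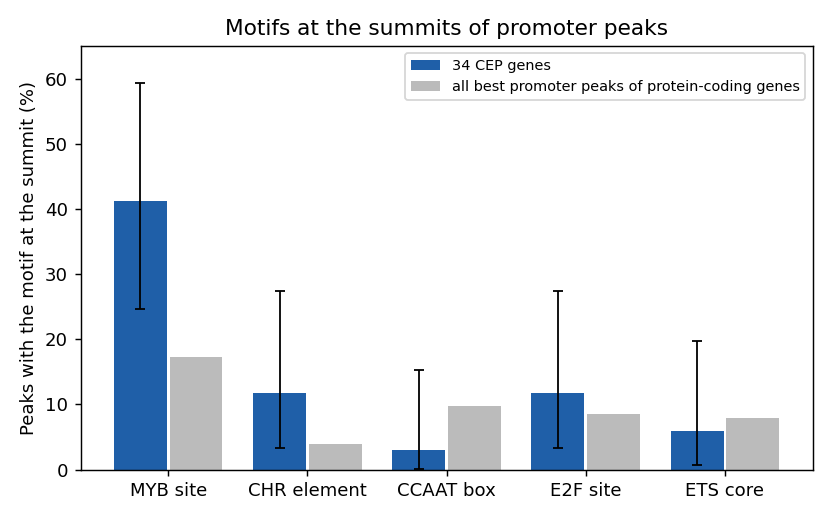
Share of best promoter peaks (percent) with each of 5 motifs within 50 bp of the summit, for the 34 CEP genes and for the 10178 best promoter peaks of all protein-coding genes, with exact binomial 95% intervals on the CEP shares. The MYB site is at 41.2% against 17.3%, and the intervals of the CEP shares are wide for every motif.

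Peaks were also found inside CEP genes away from promoters. Such peaks had the summit in the gene and overlapped no promoter window of any gene. There were 30, in 17 of the 34 genes (50%), against 34.1% of all protein-coding genes. CEP genes are long (median 66.4 kb, against 27.3 kb), and among genes of 20 kb or longer the shares were 51.5% of 33 CEP genes and 46.6% of protein-coding genes. Per 100 kb of gene, with all genes pooled, CEP genes held 0.903 such peaks and protein-coding genes 2.52. The median over single genes was 0.312 per 100 kb for CEP genes and 0 for protein-coding genes. These medians turn on the shares of genes with any such peak, 50% and 34.1%, and are not a second measure of density. By position 23 lay in introns, 4 in 3′ UTRs, 1 in a coding exon and 2 past the canonical transcript. CEP85 held 6 and CEP68 held 4, while CEP112, with 556597 bp, and CEP128, with 482536 bp, held none. In CEP55 there was 1, in an intron 18036 bp downstream of the TSS, with a fold enrichment of 3.01 from 13 fragments. These peaks were weak, with fold enrichments from 2.58 to 4.45 in all but 1.

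The exception was in an intron of CEP120, at chr5:122695622-122695881, 63.4 kb from the canonical TSS. It had a fold enrichment of 9.23 (interval 6.94 to 12.0) from 52 fragments, beside 8.65 (interval 6.43 to 11.4) at the CEP120 promoter. The intervals overlap, so the peaks did not differ beyond counting error. None of the 5 motifs lay within 50 bp of its summit.

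For context, 5 lists of other genes of centrosome and abscission were examined in the same way. Of these 80 genes 77 had a promoter peak (96.2%), beside the 59.4% of all protein-coding genes and 78.9% of those with a CpG-rich promoter, a property of 76 of the 80, with a median fold enrichment of 11.2, above the 9.08 of the CEP genes. All 17 partners in centriole duplication were bound (median 10.2), with SASS6, which builds the cartwheel, at 17.2 and CETN3, a centrin, at 16.0. Of 15 genes of the pericentriolar material 14 were bound (median 13.4), led by TUBGCP5 at 39.3 and TUBGCP6 at 24.7, both parts of the γ-tubulin ring, and MZT2B had no promoter peak. Of 13 appendage and linker partners 12 were bound (median 9.81), led by FBF1 at 17.3 and the kinase gene NEK2 at 13.7, and CROCC, the rootletin gene, had none. Of 18 spindle pole genes 17 were bound (median 10.99), led by the mitotic kinase gene PLK1 at 29.6 and CKAP5 at 23.4, and TACC2 had none. All 17 genes of cytokinesis and abscission were bound (median 12.9), with CHMP4B, a subunit of the abscission machinery, at 33.9 and PRC1, a midzone bundling protein, at 23.4. CEP55, at 12.4, lay just below the median of this last list, which also holds genes of the central spindle and cleavage furrow.

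Genes whose symbol starts with CEP but carries further letters fell outside the naming rule. CEP57L1 had a promoter peak with a fold enrichment of 9.004 and CEP85L one of 6.07. CEP170B and CEP295NL had no promoter peak.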

How the data were processed

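Values came from 1 MACS2 peak list of the MYBL2 ChIP library, called by the authors against the input. Per the study's methods single-end reads were aligned to hg19. The submitters' processing notes name Bowtie2 2.1.10 and MACS2 2.0.10. A later cleaning of the list is mentioned without details. The deposited fold enrichment is a linear ratio, (pileup + 1) / (background + 1). MACS2 also wrote the deposited −log10 of p and of q, the deposited score is derived from the −log10 q, and the weakest of 66954 peaks had a q of 0.0493. The deposited summit offset gave each summit position.

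Pileups were solved as whole numbers from fold enrichment and p (largest misfit 3.49e-05 in −log10 p, at least 0.00383 for the next whole number), with exact Poisson intervals at 95%. The lowest local background was 3.45 fragments. Genes and TSSs came from GENCODE release 44 lifted to GRCh37, whose coordinates are those of hg19 (0 peaks beyond a chromosome end). CpG observed/expected was taken within 500 bp of the canonical TSS, and CpG-rich meant at least 0.6. Shares have exact binomial intervals, and genes are not replicates. Python 3.11.15, pandas 2.3.3, scipy 1.17.1 and pyfaidx 0.9.0.4 were used, and the steps were tested on simulated data.

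The CEP genes, roles (written from general knowledge, 1 per gene), other lists and motifs were chosen with earlier results of these data known. Described in full were CEP55, the other mitotic genes, the 5 strongest and 3 weakest, and in each other list the 2 strongest and any gene without a promoter peak. Further genes were given by value, and 1 CEP gene that enters the counts and medians is not reported here. The symbol CEP15, placed by knowledge in this family, is not a symbol of the annotation and was not used. Alternatives changed the peak threshold, promoter window, overlap, TSS set, ranking and motif window. The flanking motif windows were added after seeing the data.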

Additional observations from a re-analysis of the deposited data

How the results depend on the processing

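All 34 CEP genes kept a promoter peak with −log10 q of at least 5, with windows of 500 bp or of 5000 bp upstream to 1000 bp downstream, with the summit required in the window and with the canonical TSS only. A minimum fold enrichment of 5 left 32 (without CEP72 and CEP126), and so did the outermost TSS only (without CEP128 and CEP164). The share of all protein-coding genes with a promoter peak was 56.0% with that −log10 q, 58.2% and 61.8% with those windows, 58.6% with the summit required, 55.8% with the canonical TSS, 49.6% with the minimum fold enrichment and 53.2% with the outermost TSS. The fold enrichment of CEP55 was 12.4 under every one of these settings, and by −log10 q its rank was 13 in place of 8. The share of all genes with a promoter peak moved from 59.4% to 78.9% when only protein-coding genes with a CpG-rich promoter were the background. Peaks inside CEP genes away from promoters fell from 30 to 6, in 5 genes, with −log10 q of at least 5. The same count over all protein-coding genes is not given, so that fall cannot be called particular to CEP genes. With motif windows of 100 bp either side of the summit, the shares of CEP genes and of all peaks were 52.9% and 30.8% for the MYB site, 20.6% and 7.38% for the CHR element, 17.6% and 19.7% for CCAAT, 29.4% and 16.0% for E2F, and 5.88% and 14.5% for ETS. Depth limits the weak peaks most, since 20 fragments have an interval of 12.2 to 30.9. No paired analysis was possible because there was 1 library per group, and for the same reason no library could be left out.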
